A study of Rattus norvegicus with 4 samples.

Results

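Respiratory complex I was examined through its nuclear subunits and its mitochondrially encoded ND subunits in a ribosome profiling study of rat myocardial cells. The members were taken by name: 36 nuclear subunits, and the 7 ND subunits of the mitochondrial genome. A row was found for 42 of these 43 genes among the 31038 rows of the tables, and Ndufa13 is not analysed here. Ribosome-protected fragments, the pieces of messenger RNA covered by ribosomes, had been sequenced from 4 libraries of cells labelled NRVM, a label that usually stands for neonatal rat ventricular myocytes, although the growth protocol describes embryonic heart. In the siNT group, 2 libraries came from cells given a control siRNA, and in the si3m group 2 came from cells given an siRNA against eIF3m, a subunit of the initiation factor eIF3. All cells were grown in DMEM with fetal bovine serum, and no age, strain or time after transfection is used here. The labels do not state whether replicate libraries were grown as separate cultures. The p-values therefore reflect the spread among these 4 libraries alone, and that spread may be technical. Values are footprint abundance and not translational efficiency, and in bulk samples fewer cells of a type and less RNA per cell cannot be told apart.

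Complex I takes electrons from NADH, passes them to ubiquinone and pumps protons across the inner mitochondrial membrane. Its peripheral arm stands in the matrix and consists of the N module, which oxidizes NADH, and the Q module, which reduces ubiquinone. Its membrane arm pumps protons and is built around the ND subunits. The nuclear subunits are made by cytosolic ribosomes, whose initiation uses eIF3, and are then imported, whereas the ND subunits are made inside mitochondria by mitochondrial ribosomes with their own initiation factors. Heart muscle relies on the respiratory chain for most of its ATP, and complex I is a source of superoxide when the heart is reperfused.

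Depth differed with group: the siNT libraries held 3924434 and 3835750 counts in total, replicate 1 first as in every pair of values here, and the si3m libraries 8687598 and 6726969. The siRNA target Eif3m fell 3.01-fold, from 2136 and 1774 raw counts (siNT) to 1168 and 1232 in the deeper si3m libraries (edgeR adjusted p = 3.41e-08; 0.0522 with robust quasi-likelihood). Of 13 cardiomyocyte markers, 6 had at most 6 counts in each of the 4 libraries. The markers Tnni3 and Nppa had 0 counts in all 4, and the list summed to 70.9 to 76.4 CPM in siNT and 49.7 to 58.6 CPM in si3m (each count divided by the library total and put on one common scale). The 3 cardiomyocyte markers with enough counts to test went both ways: Tnnt2 rose 2.38-fold, whereas Ttn fell 1.56-fold and Pln 2.95-fold (edgeR adjusted p = 0.00417, 0.0103 and 0.00149). The 10 fibroblast markers summed to 8009 to 8033 CPM in siNT and 12430 to 12800 CPM in si3m. Tcf21 was at 0 throughout, and Dcn and Lum were at 0 in siNT. Tcf21, Lum and Pdgfra had too few counts to test. The 7 tested all rose, beside 14.0% higher over all tested genes. One of them, Dcn, had 24 and 20 counts in si3m and entered the test only through that group. Smooth muscle markers summed to 3188 to 3215 in siNT, against 3534 to 3540 in si3m, where Acta2 was higher (log2 0.35, adjusted p = 2.02e-07), Tagln lower (log2 -0.23, adjusted p = 0.00259) and the other 2 not past the threshold. The 5 macrophage markers summed to 9.68 to 11.99 in siNT and 0.892 to 1.38 in si3m, and the 5 endothelial markers to between 2.38 and 5.74 in all libraries. The part of these markers in the results on complex I was not tested.

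The upstream sequences of the nuclear subunits were searched for letters of factors known to control genes of the respiratory chain, to see what the members share besides their enzyme. The RefSeq table of promoters (assembly GRCr8, whereas the counts were made on rn6) held 33 of the 35 nuclear subunits with a row. It lacked Ndufa8 and Ndufb9. In the 250 bases before the gene start, the letters GCGCNTGCG, a core of the binding sequence of nuclear respiratory factor 1 (NRF1), were found on either strand in 7 of 33 subunits (21.2%) and in 6.7% of 21851 protein-coding genes. The protein-coding genes were taken whether or not they had footprints, and base composition was not matched. Whether the members differ from similar genes was not tested. The ETS letters CCGGAAGT occurred in 2 subunits, Ndufs1 and Ndufb7 (6.06%, against 3.94% of all), and the YY1 letters AAGATGGC in 0 (against 1.64% of all). Windows of 50 bases with the NRF1 letters are printed to show how the matches differ, 5′ to 3′ on the strand of the gene, with the matched letters in capitals.
Ndufs6: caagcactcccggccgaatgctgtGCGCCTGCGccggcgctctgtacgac
Ndufa5: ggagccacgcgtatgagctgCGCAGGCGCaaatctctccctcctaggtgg
Ndufs5: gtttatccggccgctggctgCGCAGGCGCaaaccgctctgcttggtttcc
Ndufa12: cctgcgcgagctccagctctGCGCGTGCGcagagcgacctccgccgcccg
Ndufa11: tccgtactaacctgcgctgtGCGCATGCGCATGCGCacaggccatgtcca
Ndufb10: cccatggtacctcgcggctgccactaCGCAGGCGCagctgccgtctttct
Ndufv3: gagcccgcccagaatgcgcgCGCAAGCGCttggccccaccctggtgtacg
In GRCr8 these windows are chr1:31797350-31797399 (plus strand) for Ndufs6, chr4:53971237-53971286 (minus) for Ndufa5, chr5:141264501-141264550 (minus) for Ndufs5 and chr10:14255967-14256016 (minus) for Ndufb10. Those of Ndufa12, Ndufa11 and Ndufv3 are chr7:30658184-30658233, chr9:1637497-1637546 and chr20:9613728-9613777, all on the plus strand. In Ndufa11 overlapping matches run together into 1 longer stretch. Among these 7 subunits, 1 (Ndufs6) had more footprints in si3m and the other 6 did not pass the test described next. By that test 14.0% of all tested genes and 34.3% of the nuclear subunits were higher. Whether the letters go with a change was not tested. A match is a description and not a binding site.

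For comparison, the 100 bases before the start are given for the subunit with the greatest rise, Ndufa1 (GRCr8 chrX:121293556-121293655, minus strand), and for Ndufb6, which fell (chr5:60206153-60206252, minus strand). Neither holds any of the searched letters.
Ndufa1: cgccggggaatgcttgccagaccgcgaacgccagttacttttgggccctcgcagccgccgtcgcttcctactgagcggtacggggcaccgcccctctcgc
Ndufb6: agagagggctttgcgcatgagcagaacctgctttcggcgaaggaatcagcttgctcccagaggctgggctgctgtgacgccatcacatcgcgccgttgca

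The main question was whether footprints on complex I transcripts change when eIF3m is reduced, and whether nuclear and mitochondrial subunits do so alike. Among the 35 nuclear subunits, 12 rose and 2 fell in si3m, and 21 did not pass. All 35 had enough counts to be tested with edgeR's quasi-likelihood test, adjusted by Benjamini-Hochberg over 12672 genes with a threshold of 0.05. Over all tested genes 14.0% were higher, 13.9% lower and 27.8% either, against 34.3%, 5.71% and 40.0% of the nuclear subunits. Among genes with at least 50 counts in 2 libraries 38.4% were called, and of 33 nuclear subunits 14 were higher and 3 lower. Scaling by total counts moved all genes from 1771 higher and 1757 lower to 1428 and 2217, and the nuclear subunits to 11 higher and 4 lower. The median log2 fold change of the nuclear subunits was 0.30, beside 0.016 over all tested genes, and 0.16 without si3m replicate 2. Their groups did not overlap for 24 of 35 (68.6%), 17 with si3m above and 7 with si3m below. Over all tested genes this share was 63.9%, 32.6% with si3m above and 31.3% below. The number of rises was 7 without si3m replicate 2, and the number of falls was 5 without siNT replicate 2.

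**Figure D1:**
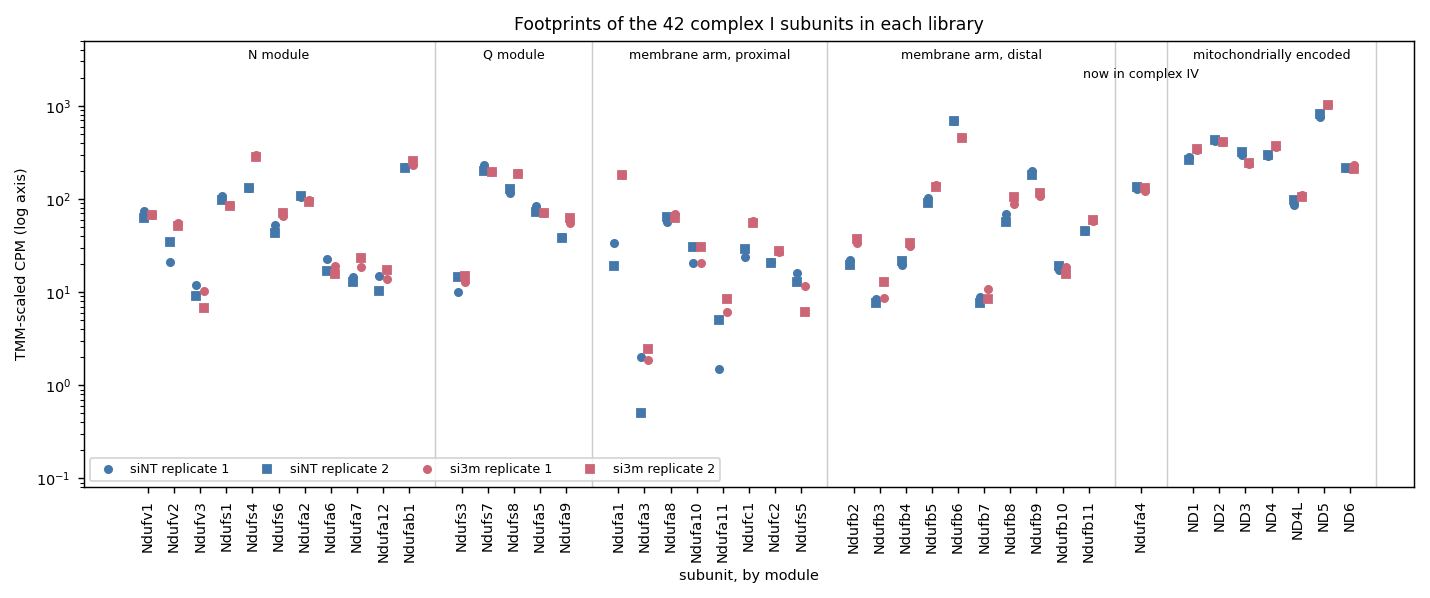
Footprint level (CPM, TMM-scaled, log axis) of each of the 42 complex I subunits in each library, in the order of their modules; circles are replicate 1 and squares replicate 2, siNT in blue and si3m in red. Levels of different genes are not corrected for length, so only points of the same gene are to be compared: Ndufa1 shows the widest gap, and Ndufb6 and Ndufb9 lie lower in si3m.

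Ndufa1, a small membrane-spanning subunit needed to assemble the enzyme and encoded on the X chromosome, rose most. On the TMM-scaled CPM used from here on for single genes, it had 33.4 and 19.3 in siNT, against 183 and 180 in si3m. The siNT libraries differed from each other, and both lay far below the si3m libraries. The rise was 6.88-fold (log2 2.78, SE 0.15, edgeR adjusted p = 1.74e-09), from 26.3 ± 9.93 to 182 ± 1.86 CPM (SD, n = 2 each). It was 3.24 on the log2 scale without siNT replicate 1 and 2.45 without siNT replicate 2. In the GRCr8 annotation Ndufa1 overlaps no other gene. It lies within 500 bases of Rnf113a1 on the opposite strand, which had 8 to 14 counts per library, and it has 1 named pseudogene.

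**Figure D2:**
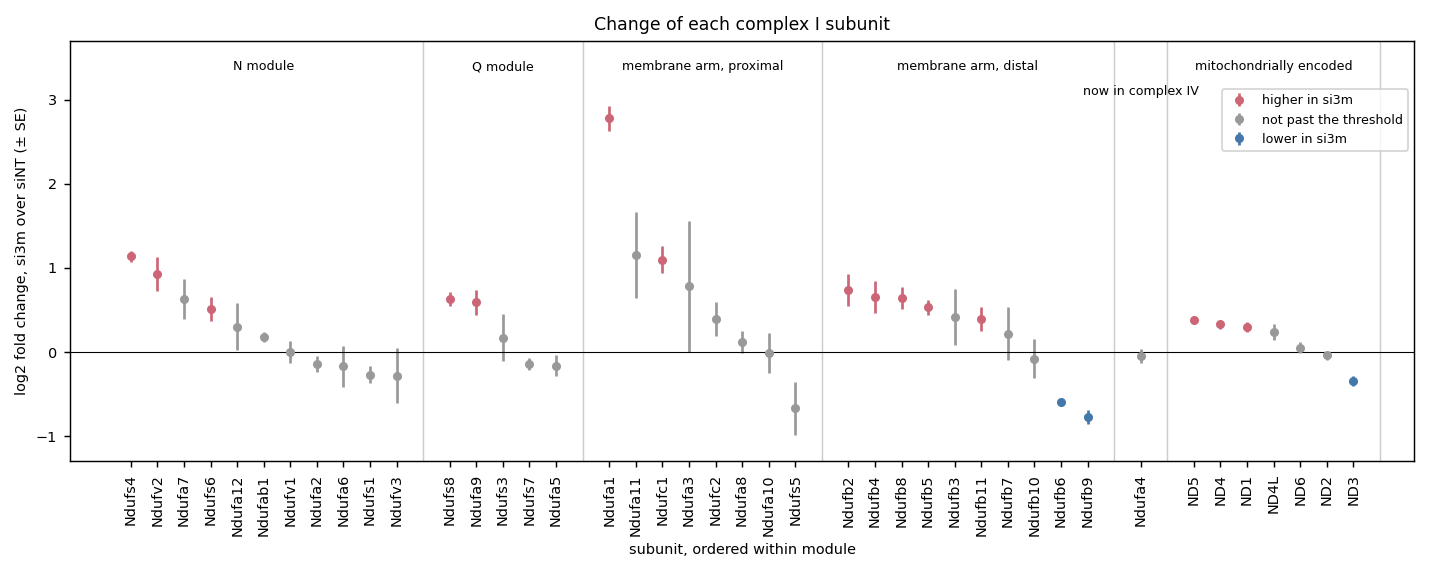
Log2 fold change of each complex I subunit in si3m over siNT, with bars of 1 standard error (SE), ordered by size within each module; red passed the test as higher, blue as lower, grey did not pass. The peripheral arm holds rises but no falls past the threshold, the distal membrane arm holds both, and the ND subunits lie between -0.34 and 0.38.

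In the peripheral arm, 5 of 16 subunits rose, 0 fell and 11 did not pass (31.2% called, near the 27.8% of all tested genes). The greatest rise there was that of Ndufs4, an accessory subunit at the joint of the N and Q modules whose loss in humans causes Leigh syndrome. Ndufs4 stood at 132 CPM in each siNT library and at 300 and 281 CPM in si3m, with a gap many times the spread within groups. It rose 2.2-fold (log2 1.14, SE 0.066, adjusted p = 3.77e-09) and spans a tRNA gene, Trnat-agu8, that has no row of its own. Ndufv2, which carries an iron-sulfur cluster beside the site of NADH oxidation, had 20.9 and 34.6 CPM in siNT and 54.9 and 50.7 in si3m. Its siNT libraries differed widely but did not reach the si3m values. It rose 1.91-fold (log2 0.93, SE 0.20, adjusted p = 0.00222), with log2 values of 1.34 without siNT replicate 2 and 0.62 without siNT replicate 1. Ndufs6, a zinc-binding accessory subunit of the N module, had 52.8 and 43.2 CPM in siNT and 65.5 and 71.5 in si3m. It rose 1.42-fold (log2 0.51, SE 0.14, adjusted p = 0.0125), and did not pass without siNT replicate 2 (0.0638) or without si3m replicate 2 (0.0786). Mrpl36, which overlaps Ndufs6 on the opposite strand, had only 12 to 26 counts per library.

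The iron-sulfur subunits of the Q module differed in outcome. Ndufs8, which hands electrons towards ubiquinone, rose 1.55-fold (log2 0.63, SE 0.079, adjusted p = 2.04e-05), from 115 and 128 CPM in siNT to 190 and 185 in si3m. Its partner Ndufs7, which carries the last cluster before ubiquinone, had 229 and 198 CPM in siNT and 193 and 194 in si3m. That difference did not pass (log2 -0.14, adjusted p = 0.170), but passed without siNT replicate 2 (log2 -0.24, adjusted p = 0.0210) and with total count scaling (log2 -0.22, adjusted p = 0.0367). A tRNA gene, Trnan-guu8, lies within Ndufs7. Ndufa9, an accessory subunit that binds NADPH, rose from 39.3 and 38.1 CPM to 54.6 and 62.5 (log2 0.59, SE 0.15, adjusted p = 0.00671), a call lost without si3m replicate 2 (0.0818).

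Of the 6 conserved core subunits that are nuclear members, 2 rose (Ndufv2 and Ndufs8) and 4 did not pass. That is 33.3% called, near the 27.8% of all tested genes, with a median log2 value of 0.08. Ndufv1, which binds NADH and the flavin, had 74.2 and 62.0 CPM in siNT and 68.1 in each si3m library. Its log2 value of 0.00 (adjusted p = 0.997) lies inside the spread of siNT. Ndufs1, the largest iron-sulfur subunit, had 108 and 97.0 CPM in siNT and 86.7 and 83.2 in si3m (log2 -0.27). The groups of Ndufs1 did not overlap, and at an adjusted p of 0.0605 it was near the threshold, passing without siNT replicate 2 (log2 -0.34, adjusted p = 0.0268) and with 4 of the other settings. Ndufs3, which holds no cofactor, had only 40 to 110 counts per library and overlapping groups (log2 0.17, SE 0.28).

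The other peripheral subunits differed by less or were measured less well. Ndufab1, the mitochondrial acyl carrier protein, had 218 and 213 CPM in siNT and 233 and 254 in si3m. It stood just outside the threshold (log2 0.18, SE 0.064, adjusted p = 0.0539) and passed in 7 of 15 alternatives, among them without si3m replicate 1 (log2 0.25, adjusted p = 0.0252) and with the replicate block (0.0428). Ndufa7 (log2 0.63, SE 0.24, adjusted p = 0.0670) passed without siNT replicate 1 (log2 0.72, adjusted p = 0.0413). Ndufa2, Ndufa5, Ndufa6, Ndufa12 and Ndufv3 had log2 values between -0.28 and 0.30 and did not pass in any alternative that tested them. The value of Ndufa6, -0.17, turned to 0.08 without siNT replicate 1.

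In the membrane arm, 7 of 18 nuclear subunits rose, 2 fell and 9 did not pass (50% called, beside 27.8% of all tested genes). Its proximal part, around ND1 and ND2, had 2 rises among 8 (25% called, near the share of all tested genes). Besides Ndufa1 this was Ndufc1, a small single-span subunit at the ND2 side. It had 23.9 and 29.0 CPM in siNT and 58.4 and 55.1 in si3m, with no overlap, and rose 2.15-fold (log2 1.10, SE 0.16, adjusted p = 1.06e-04). Its partner Ndufc2 had 20.9 and 20.8 CPM in siNT and 27.3 and 27.5 in si3m. Although the replicates of Ndufc2 were close, its adjusted p was 0.163 (log2 0.39, SE 0.20), at counts of 82 to 232.

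The other proximal subunits did not pass. Ndufa8 (log2 0.12) and Ndufa10 (log2 -0.01) had overlapping groups, and Ndufa10 moved to 0.31 without siNT replicate 2 and 0.26 without si3m replicate 1. Ndufs5, which lies on the intermembrane space face of the arm, had 64 and 50 counts in siNT and 98 and 40 in si3m. Its log2 value of -0.67 (SE 0.32, adjusted p = 0.140) reached -1.20 without si3m replicate 1 (adjusted p = 0.0380) and -0.82 without siNT replicate 2 (0.0444). The least covered members were Ndufa11, with 6, 20, 52 and 55 counts in the order siNT 1, siNT 2, si3m 1 and si3m 2, and Ndufa3, with 8, 2, 16 and 16. A difference could not be settled at this depth for either: Ndufa11 had a log2 value of 1.15 (SE 0.51, adjusted p = 0.108) that became 2.27 without siNT replicate 2 (adjusted p = 0.00173), and Ndufa3 one of 0.78 with an SE of 0.78.

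The distal part of the membrane arm, around ND4 and ND5, had the most calls, 5 rises and 2 falls among 10 subunits. These were 50% and 20% of the part, beside 14.0% higher and 13.9% lower over all tested genes. Ndufb6, an accessory subunit of this part, had 691 and 685 CPM in siNT and 466 and 449 in si3m. Its replicates lay close together in each group, and it fell 1.5-fold (log2 -0.59, SE 0.050, adjusted p = 2.95e-07). Ndufb9, which anchors an acyl carrier protein to the distal arm, had 201 and 180 CPM in siNT and 108 and 116 in si3m. It fell 1.70-fold (log2 -0.77, SE 0.082, adjusted p = 4.06e-06), with no overlap. Ndufb9 shares its locus with Tatdn1, which had 88 to 174 counts per library and a log2 value of -0.21 that did not pass. Both falls held in each of 15 alternatives, between -0.67 and -0.55 for Ndufb6 and between -0.85 and -0.68 for Ndufb9.

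Rises in the distal part were moderate, from 1.31-fold to 1.67-fold. Ndufb5 rose from 102 and 91.0 CPM to 143 and 135 (log2 0.53, SE 0.091, adjusted p = 4.29e-04), and Ndufb8 from 68.2 and 56.4 CPM to 88.3 and 106 (log2 0.64, SE 0.13, adjusted p = 0.00157). For Ndufb2 the values were 22.4 and 19.8 CPM in siNT and 33.4 and 37.1 in si3m (log2 0.74, SE 0.19, adjusted p = 0.00876). The call of Ndufb2 was lost without si3m replicate 2 (0.0815), and in the annotation it overlaps Braf on the opposite strand, which has more counts than Ndufb2 in each library and was lower in si3m (log2 -0.34, adjusted p = 0.00700). Ndufb4, a gene with 7 named pseudogenes, had 19.4 and 21.8 CPM in siNT and 31.1 and 34.0 in si3m (log2 0.66, SE 0.19, adjusted p = 0.0196). It did not pass without siNT replicate 1 (0.0503), si3m replicate 1 (0.0543) or si3m replicate 2 (0.142), or in DESeq2 (0.0619).

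Ndufb11 was the member just inside the threshold, at 44.8 and 45.2 CPM in siNT and 57.9 and 59.7 in si3m (log2 0.39, SE 0.14, adjusted p = 0.0467). Its call was lost in 9 of 15 alternatives, including each removal of a library (adjusted p = 0.0869 and 0.0730 without siNT replicates 1 and 2, 0.145 and 0.208 without si3m replicates 1 and 2), the replicate block (0.0506) and total count scaling (0.110). Ndufb3, Ndufb7 and Ndufb10 did not pass, with log2 values of 0.42, 0.22 and -0.08 at 30 to 160 counts per library. Ndufa4, long listed with complex I and now placed in complex IV, had 128 and 133 CPM in siNT and 121 and 131 in si3m, and its groups overlapped (log2 -0.05, adjusted p = 0.680). Leaving Ndufa4 out changed no count of calls, and the median of the other 34 was 0.34.

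**Figure D3:**
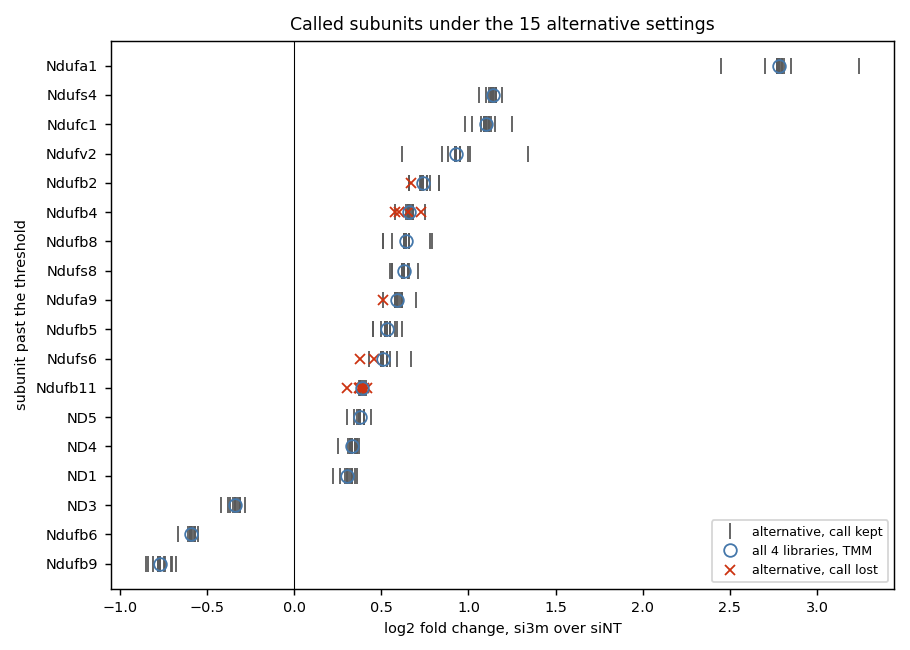
Log2 fold change (si3m over siNT) of the 18 called subunits with all 4 libraries (circles) and in the 15 alternative settings; grey ticks kept the call and red crosses lost it. The crosses fall on Ndufb11, Ndufb4, Ndufs6, Ndufb2 and Ndufa9, and no called subunit changed sign.

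Of the 14 nuclear calls, 9 were kept in all 15 alternatives, 7 rises (Ndufa1, Ndufs4, Ndufc1, Ndufv2, Ndufs8, Ndufb5 and Ndufb8) and 2 falls, and 5 rises were lost in at least 1. Among the 21 nuclear subunits that did not pass, 6 passed in at least 1 alternative. In the GRCr8 annotation 11 of the 35 nuclear subunits overlap another gene, 6 of them a gene with its own row, and 15 have named pseudogenes, 33 in all. Counts of these subunits are uncertain, since no source used here gives the strand setting or says how reads with several matches were handled.

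Of the 7 ND subunits, 3 rose, 1 fell and 3 did not pass (57.1% called, beside 27.8% of all tested genes). Among genes with at least 50 counts in 2 libraries the share was 38.4%, and all 7 ND subunits had 350 counts or more. Their median log2 fold change was 0.24, and 0.28 without si3m replicate 2, and whether it differs from that of the nuclear subunits was not tested. ND5, one of the antiporter-like proton pumps at the far end of the arm, had 759 and 812 CPM in siNT and 1018 and 1030 in si3m. It rose 1.30-fold (log2 0.38, SE 0.046, adjusted p = 1.25e-05), and the groups stood well apart. ND4, the neighbouring pump, rose from 288 and 298 CPM to 364 and 372 (log2 0.33, SE 0.056, adjusted p = 3.84e-04). ND1, which forms the entry for ubiquinone, rose from 283 and 264 CPM to 335 and 342 (log2 0.30, SE 0.059, adjusted p = 0.00106).

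ND3, a small core subunit whose loop lies near the ubiquinone site, went the other way. It had 296 and 317 CPM in siNT and 240 and 246 in si3m, and fell 1.26-fold (log2 -0.34, SE 0.059, adjusted p = 5.04e-04). The third pump, ND2, had 417 and 425 CPM in siNT and 411 and 406 in si3m. These groups lay side by side without overlap, and the difference did not pass (log2 -0.04, SE 0.053, adjusted p = 0.584). ND4L, translated from the same transcript as ND4 and overlapping it, had 87.1 and 96.5 CPM in siNT and 111 and 105 in si3m. Its log2 value of 0.24 (SE 0.098, adjusted p = 0.0860) passed only without siNT replicate 2 (log2 0.32, adjusted p = 0.0381). ND6, the one ND subunit encoded on the light strand of the mitochondrial genome, had 215 and 213 CPM in siNT and 233 and 211 in si3m, with overlapping groups (log2 0.05, adjusted p = 0.590), and turned to -0.03 with total count scaling and -0.01 without si3m replicate 1. The 4 calls among the ND subunits were kept in all 15 alternatives.

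**Figure D4:**
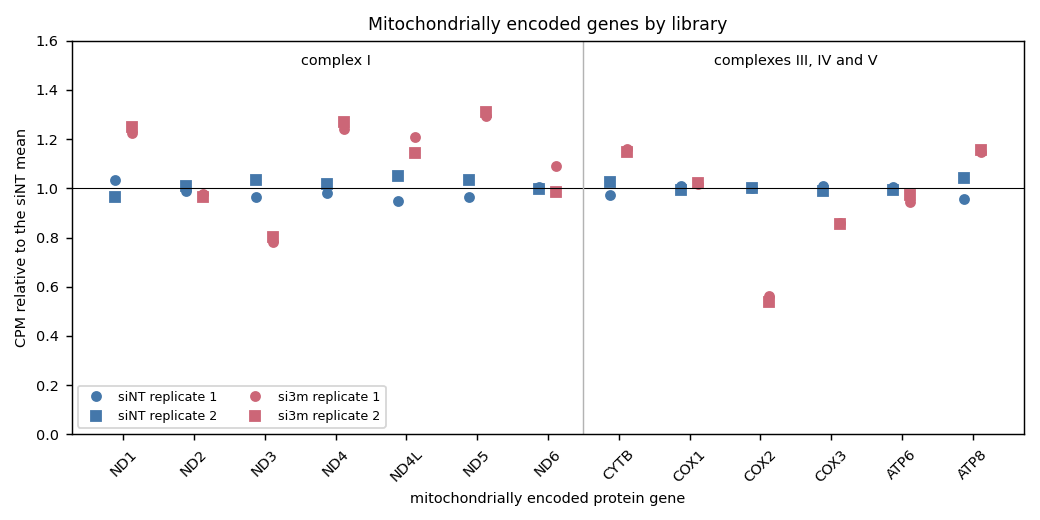
CPM of the 13 mitochondrially encoded protein genes in each library, divided by the mean of the 2 siNT libraries; circles are replicate 1, squares replicate 2, siNT in blue and si3m in red. ND1, ND4 and ND5 lie above the siNT libraries in si3m, ND3 below, and COX2 lies lowest.

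The ND subunits were set beside the other 6 proteins made in mitochondria. Among these, 1 rose, 2 fell and 3 did not pass (50% called, beside 27.8% of all tested genes). CYTB, the mitochondrial subunit of complex III, rose 1.15-fold (log2 0.21, SE 0.040, adjusted p = 0.00117), from 1117 and 1176 CPM to 1330 and 1314. COX2, the subunit of complex IV that receives electrons from cytochrome c, fell 1.82-fold, from 232 CPM in each siNT library to 130 and 125 in si3m (log2 -0.87, SE 0.068, adjusted p = 1.36e-07). COX3 fell 1.17-fold (log2 -0.22, SE 0.031, adjusted p = 6.86e-05). COX1 (log2 0.03), ATP6 (log2 -0.06) and ATP8 (log2 0.20) did not pass. With total count scaling COX1 turned to -0.05 and ATP6 passed (log2 -0.14, adjusted p = 0.0276). Whether reads on these transcripts came from mitochondrial ribosomes was not tested.

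**Figure D5:**
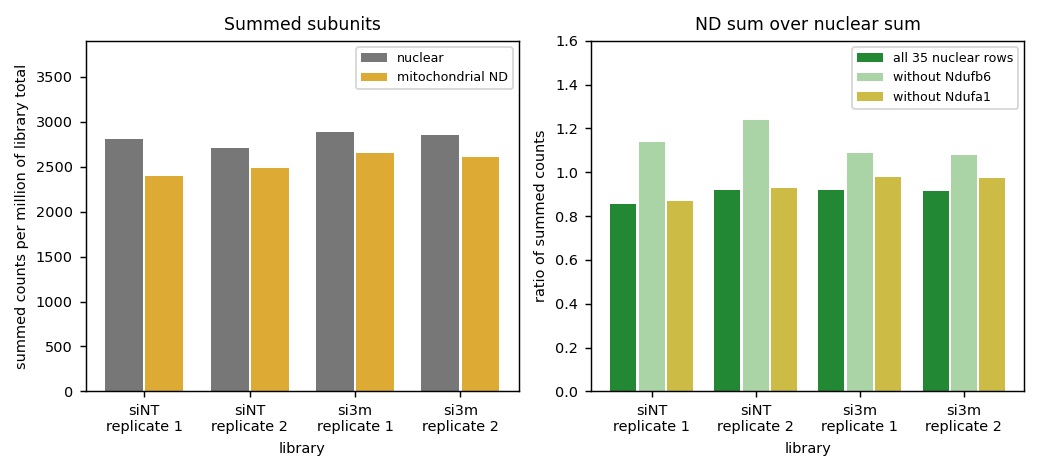
Left, CPM of the library total summed over the 35 nuclear subunits and over the 7 ND subunits in each library; right, the ratio of the summed counts with all nuclear rows and without Ndufb6 or without Ndufa1. With all rows the ratio lies between 0.856 and 0.920 in the 4 libraries; without Ndufb6, which fell, both si3m libraries lie below both siNT libraries, and without Ndufa1, which rose, both lie above.

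The counts were also summed over the members. The 35 nuclear subunits took 2805 and 2707 CPM of the library total in siNT, and 2888 and 2854 CPM in si3m. The 7 ND subunits took 2401 and 2490 CPM in siNT and 2650 and 2606 CPM in si3m. Both sums were higher in si3m, without overlap between groups. Among single tested genes 63.9% did not overlap either. Each separation rested on 1 gene: without Ndufa1 the nuclear sums overlap between groups, and without ND5 the ND sums do. The ratio of the ND sum to the nuclear sum was 0.856 and 0.920 in siNT and 0.917 and 0.913 in si3m, overlapping between groups. The ratio of the group means was 1.03, and between 0.995 and 1.07 when 1 library was left out. With 2 libraries against 2, an exact permutation test cannot give a p below 0.33, and no test was made of these sums.

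The ratio turned on single nuclear genes. Ndufb6, which fell, held 25.2% and 26.0% of the nuclear sum in siNT and 15.8% and 15.1% in si3m, and Ndufa1, which rose, held 1.22% and 0.732% in siNT and 6.19% and 6.07% in si3m. Without Ndufb6 the ratio was 1.14 and 1.24 in siNT and 1.09 and 1.08 in si3m, lower in si3m. Without Ndufa1 it was 0.867 and 0.926 in siNT and 0.978 and 0.972 in si3m, higher in si3m. Both removals were chosen after the values were seen. Both the direction and the size of each move follow from the share of the nuclear sum that the removed gene held in each group. Neither removal is taken to show a shift between the genomes. Within the ND sum, ND5 held 32.4% and 33.5% in siNT, against 37.5% and 38% in si3m. The other 6 mitochondrial proteins summed to 4.05 and 3.89 times the ND sum in siNT and to 3.42 times in each si3m library. These shares follow gene length as well as translation and describe only how each sum is made up.

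Of 18 tested assembly factors, which build complex I but are not part of it, 1 was higher, 2 were lower and 15 did not pass. The share called was 16.7%, beside 27.8% of all tested genes, and the median log2 value was -0.02. Tmem126b, which helps assemble the ND2 module, fell 1.83-fold (log2 -0.87, SE 0.13, adjusted p = 1.14e-04), from 98.7 ± 17.1 to 54.1 ± 1.85 CPM (SD, n = 2 each). Ndufaf7, a mitochondrial methyltransferase, fell 1.66-fold (log2 -0.73, SE 0.19, adjusted p = 0.00906), and was not past without siNT replicate 1 (0.0608) or without si3m replicate 1 (0.0662). Nubpl, which supplies iron-sulfur clusters, was higher on 2 and 8 counts in siNT and 32 and 46 in si3m (log2 2.08, SE 0.67, adjusted p = 0.0302). It had enough counts to be tested only through si3m, the group in which it was high. The call was lost without siNT replicate 1 (log2 1.40) and without si3m replicate 2 (log2 1.57).

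Among 26 genes of mitochondrial DNA upkeep, transcription and translation, 3 rose, 2 fell and 21 did not pass. That is 19.2% called, beside 27.8% of all tested genes. Polg, the polymerase that copies mitochondrial DNA, fell 3.25-fold, by a log2 value of -1.70 (SE 0.082, adjusted p = 3.73e-10; 216 ± 2.77 against 66.4 ± 3.73 CPM, SD, n = 2 each). Mtif3, an initiation factor of mitochondrial ribosomes, fell 2.28-fold (log2 -1.19, SE 0.31, adjusted p = 0.00883), but not past the threshold without si3m replicate 2 (log2 -0.93, adjusted p = 0.0867), and Mtif2, another such factor, did not pass (log2 -0.17, adjusted p = 0.653). Slirp, which with Lrpprc stabilizes mitochondrial messenger RNA, rose 2.2-fold (log2 1.14, SE 0.21, adjusted p = 7.49e-04), whereas Lrpprc itself stood at 341 ± 26.6 CPM (siNT) and 340 ± 6.88 CPM (si3m, SD, n = 2 each). Grsf1, of mitochondrial RNA granules, rose 1.22-fold (log2 0.29, adjusted p = 0.0104; 0.101 without si3m replicate 2). The Tfb1m gene, for a ribosomal RNA methyltransferase, rose on 20 counts in each siNT library and 96 and 58 in si3m (adjusted p = 0.0422). Its call was lost without siNT replicate 1 (0.0585), si3m replicate 1 (0.318) or si3m replicate 2 (0.0759). In the GRCr8 annotation Polg overlaps Fanci, Slirp overlaps Alkbh1 and Snw1, Tfb1m overlaps Tiam2 and Cldn20, and Mtif3 overlaps Gtf3a, so counts of these genes are uncertain as well.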

How the data were processed

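Each library has 1 deposited file of raw counts, whole numbers per gene row, made by the authors with Trimmomatic 0.40, HISAT2 2.2.1 and featureCounts among the tools, and the build rn6, per the submitters' processing notes; limma and DESeq2 are also named, and no source used here gives the annotation or strand setting. Between 94.9% and 97.3% of counts above 0 were even. If each fragment was counted as a pair, which was not tested, 6 counts would stand for 3 fragments, and low counts for less evidence. From the deposited counts edgeR 4.0.16 in R 4.3.3 computed filterByExpr (minimum count 10), TMM, glmQLFit and two-sided glmQLFTest without a replicate block. The p-values were adjusted over all 12672 genes tested. SE is the log2 fold change divided by the square root of F. DESeq2 1.42.0 was an alternative. On simulated data for this comparison (12400 genes), 34.2% of 1.5-fold, 81.0% of 2-fold and 96.7% of 4-fold changes were recovered, and 0.0901% of unchanged genes called. The simulated counts had the same dispersion, a measure of spread beyond counting noise, for every gene, and no excess of even numbers. These shares may therefore not hold for the deposited counts. Members, lists and tests were chosen with earlier results of these data known. The rule for named genes took the siRNA target, every member, genes sharing a locus with a described member and, from each other list of mitochondrial genes, up to 4 called genes by smallest p. Cell type markers, Tfb1m, and the uncalled Lrpprc, Mtif2, COX1, ATP6 and ATP8 were named after their values were seen. A level per codon was not computed, for want of protein lengths, so levels of different genes were not compared. Symbols served to match RefSeq (GRCr8), and 27 rows with a date for a symbol stayed in the fit.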

Additional observations from a re-analysis of the deposited data

How the results depend on the processing

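Alternatives were 2 other count filters, 3 other scalings, DESeq2, the replicate block, removal of each library and thinned counts. Halved counts, protein-coding rows only, robust quasi-likelihood, and removal of a library or of single genes for the sums were chosen after seeing the data. Replicate numbers are shared by the groups, but the labels do not state a pairing. Replicates with the same number did not deviate together (correlation across genes -0.022). A value near 0 does not exclude a pairing, so the replicate block is given only as an alternative. Under it 12 nuclear subunits were higher and 2 lower, as without it, with Ndufab1 gained and Ndufb11 lost, and 3694 of all genes were called against 3528. With total count scaling 4 nuclear subunits were lower, and the medians were 0.22 (nuclear) and 0.16 (ND). The nuclear median was 0.25 with halved counts and the ND median 0.27 with thinned counts. When 1 library was left out, 7 to 11 nuclear subunits were higher and 2 to 5 lower, with medians of 0.16 to 0.38 (nuclear) and 0.17 to 0.28 (ND). Then 0 to 1 assembly factors were higher and 1 to 2 lower; 2 were higher with no low-count filter, and 0 with the filter of 50 counts, in DESeq2 and with halved counts. The ratio of ND to nuclear sums, si3m over siNT, was 1.03 with all rows, 0.907 leaving out Ndufb6 and 1.09 leaving out Ndufa1. Each move from 1.03, in direction and size, follows from the share of the nuclear sum that the removed gene held. The causes of the other differences between settings were not tested.

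Values near 0 changed sign. Ndufv1 was at 0.02 with no low-count filter and with upper quartile scaling, 0 with the replicate block, 0.03 with thinned counts and -0.12 to 0.14 with 1 library left out. For Ndufa10 the values were 0.01 with no low-count filter and with upper quartile scaling, 0.09 with thinned counts and -0.3 to 0.31 with 1 library left out. With thinned counts Ndufa4 was at 0.01, and with total count scaling ND6 was at -0.03 and COX1 at -0.05. With 1 library left out, the ranges were -0.37 to 0.08 for Ndufa6, -0.08 to 0.48 for Ndufs3, -0.21 to 0.05 for Ndufb10, -0.1 to 0.02 for Ndufa4 and -0.01 to 0.13 for ND6. Leaving out a library leaves 1 sample in a group, which is assumed to vary like the other group. Low depth limits most the subunits under about 50 counts in siNT, such as Ndufa3 and Ndufa11.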
